A study of Mus musculus with 10 samples.

Results

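The renin-angiotensin system was represented by 9 genes: Ren1 (renin), Agt, Ace, Mme, Enpep, the angiotensin receptors Agtr1a, Agtr1b and Agtr2, and Mas1. A gene was measured where the array's annotation gave a row its symbol, or a synonym, as the only gene. This held for 8 of the 9 members, each with 1 row, out of 30084 genes in all. No row used here was named for Ren1, so the enzyme that starts the cascade is not analysed here.

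Whole-kidney RNA came from 5-week-old mice, 5 per genotype, with 1 Affymetrix whole-transcript array for each kidney. In the knockout mice a floxed Lkb1 (Stk11) allele was deleted by KspCre, a Cre transgene driven by the promoter of Cdh16, which is active in tubular epithelium. Controls were littermates, Lkb1flox/+ or Lkb1flox/flox, that lacked the transgene, so genotypes differed in Cre as well as in Lkb1, and the labels do not tell which control carried which allele. The strain is labelled C57Bl/6N, although the floxed line had a mixed background, and the titles call the knockout group a knockdown. The sex of the mice is not given in the sources used here, and the series' design text speaks of a dog cell line that none of these samples comes from.

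The cascade works by successive cleavage. Renin, released by juxtaglomerular cells of the afferent arteriole, cuts the secreted protein angiotensinogen to angiotensin I, and angiotensin-converting enzyme (ACE) trims that to angiotensin II. Angiotensin II acts through type 1 receptors to constrict vessels and retain sodium, while aminopeptidase A, neprilysin and other peptidases shorten the angiotensins further. The kidney makes angiotensinogen, ACE and these peptidases itself, largely in the proximal tubule, and therefore has a local system beside the one in the circulation.

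Array medians were 5.35 to 5.42 on the RMA log2 scale, and pairwise correlations over all genes were 0.992 to 0.998. RMA puts arrays on a common scale, so these medians do not show how alike the arrays were before it. A gene is called dim below where its mean in each genotype failed to exceed 50% of the 5222 negative control probe sets, whose median was 5.10 to 5.37 on the 10 arrays. The targeted gene, Stk11, was at 9.40 to 9.48 in controls and at 9.07 to 9.31 in knockouts, without overlap (log2 difference -0.25, SE 0.05, limma adjusted p = 0.00747). Markers of kidney epithelium were bright on every array, with Umod of the thick ascending limb at 12.63 or above and the endocytic receptor Lrp2 of the proximal tubule at 12.47 or above.

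Agt and the 3 peptidase genes among the members (Ace, Mme and Enpep) differed between the genotypes by at most 0.084 on the log2 scale, inside the spread between kidneys. Agt, which encodes angiotensinogen, lies on chromosome 8 from 124556587 to 124569706 (mm10; coordinates from RefSeq's GRCm38.p6, the same build). Its log2 level was 9.94, 9.80, 9.77, 9.60 and 9.70 in controls 1 to 5 and 9.71, 9.91, 9.65, 10.11 and 9.81 in knockouts 1 to 5. The lowest and second highest kidneys were controls and the highest was knockout 4, so the groups overlapped. The control mean was 9.76 ± 0.13 and the knockout mean 9.84 ± 0.18 (SD, n = 5). They differed by 0.074 (SE 0.085, limma adjusted p = 0.639, two-sided exact permutation p = 0.484). Leaving out 1 kidney moved that difference between 0.0062, without knockout 4, and 0.12. In bulk RNA, a change in the number of cells that make a transcript cannot be told apart from a change in RNA per cell.

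Ace, at 105967948 to 105989964 on chromosome 11, encodes the dipeptidyl carboxypeptidase that makes angiotensin II and also inactivates bradykinin. Control levels were 10.62, 10.73, 10.71, 10.22 and 10.57, and knockout levels were 10.59, 10.65, 10.62, 10.74 and 10.67. Control 4 stood below every other kidney, and the remaining 9 lay within the narrow band from 10.57 to 10.74. With all kidneys the means were 10.57 ± 0.21 and 10.66 ± 0.06, and the difference was 0.084 (SE 0.083, limma adjusted p = 0.574, exact permutation p = 0.532). Without control 4 the difference was -0.0028 and the SD of the controls fell to 0.076 (n = 4), so the small excess in knockouts rested on that kidney. Control 4 also had the lowest Agt of all kidneys and the lowest level of the brush border aminopeptidase gene Anpep (10.48, against 10.58 to 10.80 elsewhere), and its mean over 11 proximal tubule markers was the lowest among controls (12.17). Mme was instead highest in that kidney, and whether these values share a cause was not tested.

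Mme (chromosome 3, 63295211 to 63383713) encodes neprilysin, which cuts angiotensin I directly to the heptapeptide that Mas1 binds and also degrades natriuretic peptides and kinins. Controls measured 10.80, 10.83, 10.90, 10.98 and 10.84, and knockouts 10.73, 10.82, 10.80, 10.87 and 10.87. The highest 2 kidneys were controls and the lowest was knockout 1, but most values interleaved. The difference of -0.054 (SE 0.045) had the smallest p of the 8 members, and it did not pass (limma adjusted p = 0.50, exact permutation p = 0.246).

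Enpep (chromosome 3, 129269177 to 129332749) encodes aminopeptidase A, which removes the first residue of angiotensin II. Its levels were 10.57, 10.43, 10.41, 10.56 and 10.52 in controls and 10.45, 10.46, 10.36, 10.50 and 10.60 in knockouts. Both the highest and the lowest kidney were knockouts, and the difference was -0.023 (SE 0.051, limma adjusted p = 0.816, exact permutation p = 0.659).

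Among the receptors, the type 1 receptor gene Agtr1a varied least. Mice have a pair of type 1 receptor genes, and Agtr1a (chromosome 13, 30336356 to 30382867) is the main form in kidney. It was at 8.86, 8.77, 8.85, 8.79 and 8.79 in controls and at 8.81, 8.88, 8.78, 8.81 and 8.76 in knockouts, so that all 10 kidneys lay between 8.76 and 8.88. The difference was -0.0056 (SE 0.038, limma adjusted p = 0.944, exact permutation p = 0.881), and the 95% interval was -0.09 to 0.08.

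Agtr1b (chromosome 3, 20314473 to 20367177), the second type 1 receptor gene, has a coding sequence very like that of Agtr1a. Part of the signal of each may therefore come from the other, which was not tested. Agtr1b was at 6.94, 6.71, 6.89, 6.77 and 6.89 in controls and 6.84, 6.62, 7.01, 6.79 and 6.63 in knockouts. The knockouts enclosed the whole control range, with a difference of -0.059 (SE 0.076, limma adjusted p = 0.679, exact permutation p = 0.492) that ran from -0.12 to -0.018 when 1 kidney was left out. In controls its mean lay above 84.4% of the negative controls, while those of the other 5 bright members lay above 97.6% or more.

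Agtr2 and Mas1 were dim in both genotypes. Agtr2 (X chromosome, 21484624 to 21488833), the type 2 receptor gene, which is prominent in the fetal kidney, was at 4.02 to 4.31 in controls and 4.10 to 4.25 in knockouts. Mas1 (chromosome 17, 12838841 to 12868150) was at 4.29 to 4.55 and 4.24 to 4.42. Only 26.6% (Agtr2) and 31.1% (Mas1) of the negative controls lay below their control means, so neither was well above background and no fold is given. Differences between the groups were -0.028 for Agtr2 (limma adjusted p = 0.800) and -0.050 for Mas1 (limma adjusted p = 0.635).

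**Figure D1:**
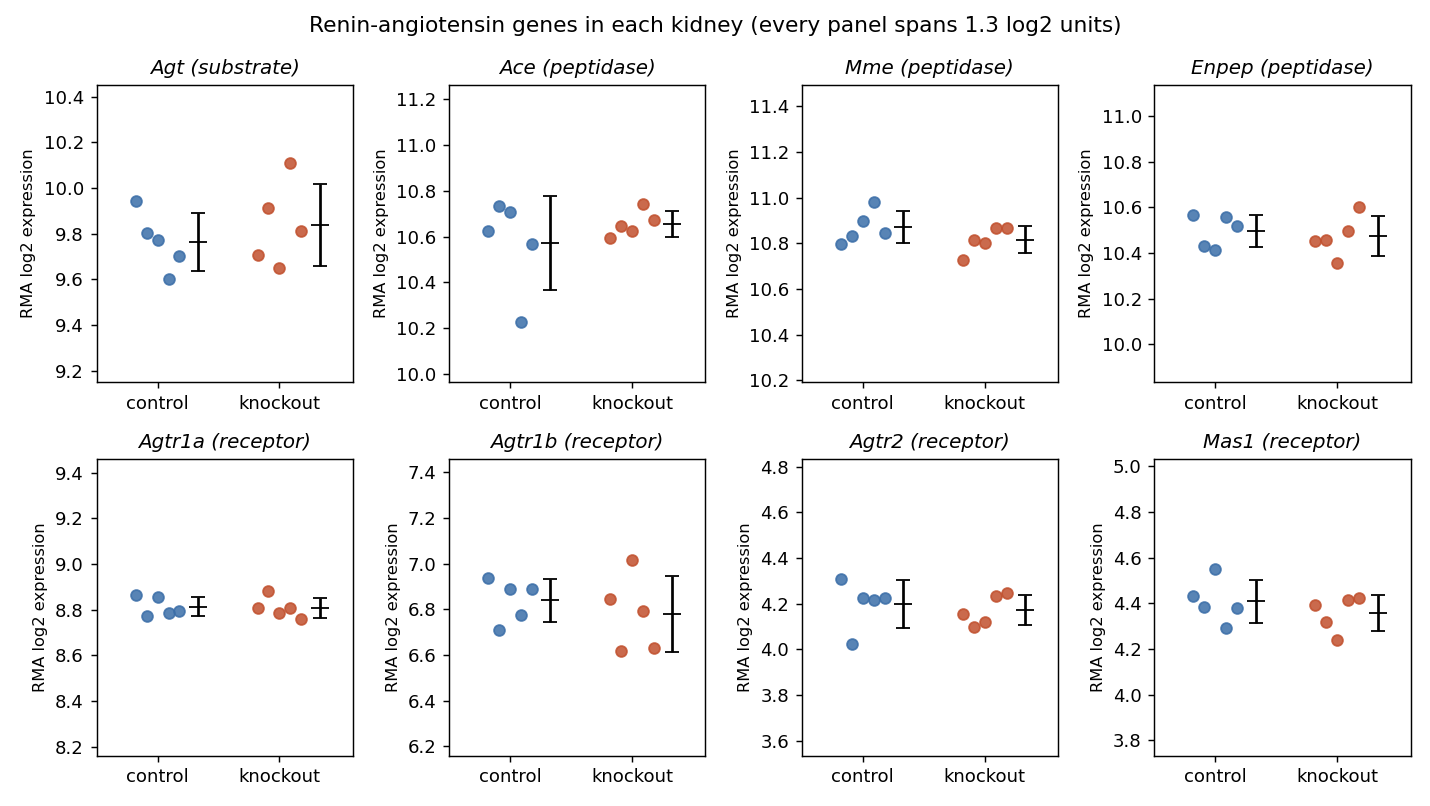
RMA log2 expression (vertical axis) of the 8 measured members in each kidney, controls in blue and knockouts in red, with the group mean ± SD (n = 5) as a black bar beside the points. Every panel has the same height in log2 units, and the groups overlap in all 8 panels; control 4 is the low point of Ace at 10.22.

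Across the system, 0 of the 8 measured members passed the test in either direction (limma, adjusted p under 0.05 over all genes), and 0 had an unadjusted p under 0.05. Over all genes 8.04% passed and 23.0% had an unadjusted p under 0.05, so with 8 genes an empty count is not far from that background. The genotypes overlapped for all 8 members, while they did not overlap for 8.58% of all genes. The members' median difference was -0.026, beside -0.028 over all genes. Adjusted p-values ran from 0.50 to 0.944, and exact permutation p-values from 0.246 to 0.881, in a design whose smallest possible p is 0.00794.

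The 95% intervals, which are not adjusted for the number of genes, give the range of differences compatible with the data. They are not limits of detection. In the 6 bright members the 95% limits of the difference reached from -0.22 (Agtr1b) to 0.26 (Ace), which is 85.6% to 120% of the control level. Mme was held to 90.0% to 103% of control, Enpep to 91.1% to 106% and Agtr1a to 94.1% to 105%. For Agt and Ace the intervals were wider, 92.6% to 120% and 93.6% to 120%. A fall as large as that of Stk11 (-0.25) lies outside the interval of every member, but the upper limits of Agt and Ace both reached 0.26.

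**Figure D2:**
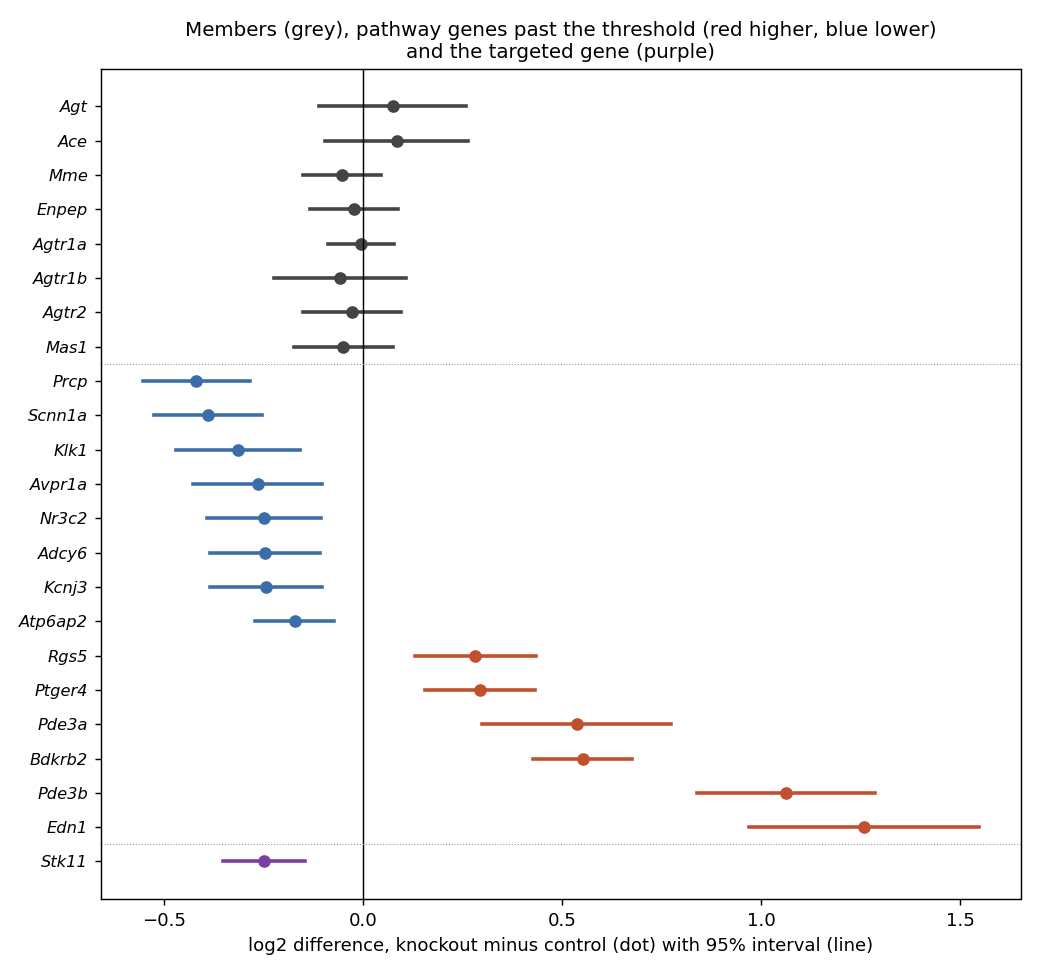
Log2 difference between knockout and control (dot) with its 95% interval (line) for the 8 members in grey, for the 14 genes of related pathway lists that passed the test (red higher, blue lower in knockouts), and for Stk11 in purple. The interval of every member includes 0, and the members' dots lie between -0.059 and 0.084.

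Members differed in how much they varied from kidney to kidney. The within-group SD was 0.16 for Agt, 0.15 for Ace and 0.13 for Agtr1b. It was larger than in 86.5%, 84.6% and 78.3% of the 19329 genes whose means exceeded 50% of the negative controls in both genotypes. The rank of Ace rested on control 4: the SD of the controls was 0.21 with it and 0.076 without it, and that of the knockouts was 0.06. The within-group SD was 0.08 for Enpep, 0.06 for Mme and 0.04 for Agtr1a, and 4.88% of those 19329 genes varied less than Agtr1a. Levels of the 6 bright members were also compared with each other across the 10 kidneys, 15 pairs in all, and 0 pairs reached an unadjusted Pearson p under 0.05. Agt and Ace came closest (Pearson r = 0.614, permutation p = 0.0709, Spearman rho = 0.649, permutation p = 0.0490, adjusted p = 0.865 and 0.735 over the 15 pairs). Leaving out knockout 4 and control 4, the kidneys farthest from the median of Agt, lowered r to 0.281 over a narrower range of Agt.

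Some genes that act beside the members did change. Of 73 measured genes on 5 lists of related peptidases, receptor partners, renin control, mineralocorticoid action and kinin or natriuretic signalling, 6 rose, 8 fell and 59 did not pass, 19.2% called against 8.04% of all genes. Over all genes 5.36% rose and 2.67% fell. The lists were chosen with earlier results of these data known. All genes also include many near background, since 19329 of 30084 had means above 50% of the negative controls in both genotypes. The shares are therefore not alike, and no enrichment is read from them. The median difference over the 73 was 0.0047. Of the 8 that fell, 3 (Prcp, Klk1 and Scnn1a) kept the call whichever single kidney was left out, and the count of decreases lay between 3 and 5 without any kidney other than knockout 5. Of the 6 that rose, 5 kept it, all but Rgs5. The other 5 decreases (Atp6ap2, Adcy6, Kcnj3, Nr3c2 and Avpr1a) were also lost when all transcript clusters were fitted and adjusted together (adjusted p from 0.0558 to 0.0801). Knockout 5 was the knockout nearest to the control mean for 11 of these 14 genes, and knockout 3 the farthest for 8.

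Other angiotensin proteases and peptidases gave 2 decreases and 0 increases among 13 measured genes. Prcp, a carboxypeptidase that also removes the last residue of angiotensin II, was at 10.14, 10.15, 9.93, 9.98 and 10.14 in controls and at 9.66, 9.65, 9.47, 9.72 and 9.75 in knockouts. All knockouts lay below all controls, at 74.7% of the control level (95% interval 68.1% to 82.0%; log2 difference -0.42, SE 0.06, limma adjusted p = 0.00174). Anpep, the aminopeptidase N gene, which acts after Enpep and was singled out after its values were seen, differed by 0.06 (limma adjusted p = 0.523).

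The other decrease was in Klk1, tissue kallikrein, the protease that releases kinins. Controls spanned 13.65 to 13.74 and knockouts 13.15 to 13.61, with knockout 5 nearest to the controls. The difference was -0.31 (SE 0.07, limma adjusted p = 0.0179). Mouse Klk1 has many close paralogues, so part of this signal may come from them. Beside both decreases, 3 of 11 proximal tubule markers fell and 0 rose, with kidney means over the list of 12.17 to 12.25 in controls and 11.91 to 12.15 in knockouts. The dicarboxylate transporter gene Slc13a3 (-0.42, adjusted p = 2.19e-04) and Lrp2 (-0.21, adjusted p = 0.0118) had the smallest p-values of that list. Its largest difference was that of Slc5a2 (-0.46, limma adjusted p = 0.0198). Markers of the thick ascending limb and macula densa moved as well, 5 of 8 lower and 1 higher, with kidney means of 9.53 to 9.67 and 9.22 to 9.47. The smallest p-values there were those of Egf (difference -0.96) and Umod (-0.45). The marker that rose was Cldn16 (0.45, limma adjusted p = 7.34e-04), without overlap. None of the proximal markers was dim, and the part of these shifts in the 2 decreases was not tested.

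Of 12 receptor partners, 1 fell and 1 rose. Atp6ap2, the prorenin receptor, which is also an accessory subunit of the vacuolar proton pump, was at 10.91, 10.83, 10.76, 10.84 and 10.75 in controls and 10.57, 10.68, 10.58, 10.69 and 10.71 in knockouts. The groups did not overlap, but the gap between control 5 and knockout 5 was small. The difference was -0.17 (SE 0.05, limma adjusted p = 0.0378), and the call was lost without any 1 of 8 kidneys (adjusted p up to 0.0945), the exceptions being control 5 and knockout 5. The replicate numbers as a block gave 0.0651.

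Rgs5, a pericyte gene whose product dampens signalling by receptors such as the type 1 receptor, was higher by 0.28 (SE 0.07, limma adjusted p = 0.0288). Control 4 (9.43) reached into the knockout range of 9.42 to 9.62. This call was lost without control 1, 2, 3 or 5 or knockout 2 or 3 (adjusted p up to 0.0741). Rgs5 is itself on the list of vascular smooth muscle, mesangial and pericyte markers, of which 4 of 11 rose and 0 fell, with kidney means of 8.0 to 8.26 in controls and 8.23 to 8.48 in knockouts. Des, the desmin gene (0.32, adjusted p = 0.00579), and Pdgfrb, a receptor of mesangial cells and pericytes (0.47, adjusted p = 0.00675), had its smallest p-values. The highest control mean of that list, too, was in control 4.

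On the list of renin cell identity and renin control, 3 of 22 measured genes rose, 2 fell and 17 did not pass. Cyclic AMP is the messenger that drives renin release. Pde3b, a phosphodiesterase that breaks down cyclic AMP, was at 7.52, 7.80, 7.59, 7.79 and 7.57 in controls and 8.82, 8.87, 8.94, 8.59 and 8.36 in knockouts. Every knockout exceeded every control, a 2.09-fold rise (log2 difference 1.06, SE 0.10, limma adjusted p = 1.86e-04).

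Its relative Pde3a rose from 7.74 ± 0.10 to 8.27 ± 0.27 (1.45-fold, limma adjusted p = 0.0106), again without overlap, though knockout 5 (7.90) was close to the highest control (7.82). Ptger4, a prostaglandin receptor that raises cyclic AMP, rose from 6.47 ± 0.04 to 6.76 ± 0.14 (1.23-fold, limma adjusted p = 0.0146). Adcy6, a cyclase that makes cyclic AMP, fell from 9.60 ± 0.12 to 9.36 ± 0.10 (log2 difference -0.25, limma adjusted p = 0.0332), with overlap, since control 5 (9.43) was below knockouts 2 and 4. The Adcy6 call was lost without control 1, 2, 3 or 4 or knockout 1 or 3 (adjusted p up to 0.0819) and with array weights (0.0660). The second decrease, in the potassium channel gene Kcnj3, was in a dim gene (4.81 to 5.12 in controls, 4.58 to 4.76 in knockouts) and was lost once values were floored at the negative control median (adjusted p = 0.936 against 0.0374) or without any 1 of 7 kidneys.

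A further 3 markers of the juxtaglomerular apparatus, singled out after their values were seen, did not pass. Gja5, the connexin that joins renin cells, was 6.86 ± 0.08 in controls and 6.88 ± 0.13 in knockouts (limma adjusted p = 0.905), with a sign that turned when single kidneys were left out. Nos1, the nitric oxide synthase of the macula densa, differed by -0.11 (limma adjusted p = 0.175). Ptgs2, the macula densa cyclooxygenase, differed by 0.62 (SE 0.19, limma adjusted p = 0.0745), with knockouts from 5.74 to 6.83 and controls from 5.37 to 5.97. It passed without knockout 3 or knockout 5 (smallest adjusted p = 0.0291), with array weights (0.0235) and with floored values (0.0477). Only 62.0% of the negative controls lay below the control mean of Ptgs2, so the size of its difference is uncertain.

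In the mineralocorticoid arm, through which angiotensin II raises sodium uptake by way of aldosterone, 2 of 11 genes fell and 0 rose. Scnn1a, a subunit of the epithelial sodium channel, was 9.66 to 9.98 in controls and 9.34 to 9.55 in knockouts (log2 difference -0.39, limma adjusted p = 0.00288). The other subunit genes on the list, Scnn1b (-0.014, limma adjusted p = 0.900) and Scnn1g (0.099, limma adjusted p = 0.190), did not pass. Nr3c2, the mineralocorticoid receptor gene, was 8.06 to 8.32 in controls and 7.85 to 8.06 in knockouts, so the groups overlapped slightly (difference -0.25, limma adjusted p = 0.0378). The Nr3c2 call was lost without control 3, 4 or 5 or knockout 1, 3 or 4 (adjusted p up to 0.0940), and with the replicate numbers as a block (0.0531). The list's median was 0.10 although both of its calls were decreases. Hsd11b2, the enzyme that shields the receptor from glucocorticoids, differed by 0.07 (limma adjusted p = 0.511).

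Peptide systems that share peptidases with the angiotensins held the largest difference among the 14 called genes. Of 15 kinin, natriuretic peptide, apelin, endothelin and vasopressin genes, 2 rose, 1 fell and 12 did not pass. Edn1, which encodes the vasoconstrictor endothelin, was at 6.63, 6.88, 6.48, 6.86 and 6.31 in controls and 7.81, 8.11, 8.20, 7.77 and 7.57 in knockouts. The groups were far apart, with a 2.39-fold rise (log2 difference 1.26, SE 0.13, limma adjusted p = 2.54e-04).

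Bdkrb2, the constitutive bradykinin receptor gene, rose from 5.53 ± 0.05 to 6.08 ± 0.11 without overlap (log2 difference 0.55, SE 0.06, limma adjusted p = 2.38e-04). Only 58.0% of the negative controls lay below its control mean, so the size of that rise is uncertain. Avpr1a, a vasopressin receptor gene, differed by -0.26 (limma adjusted p = 0.0486), with overlap. That call was lost without any single kidney except knockout 5 (adjusted p up to 0.111), with the replicate block (0.0799) and with no mean-variance trend (0.0527).

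**Figure D3:**
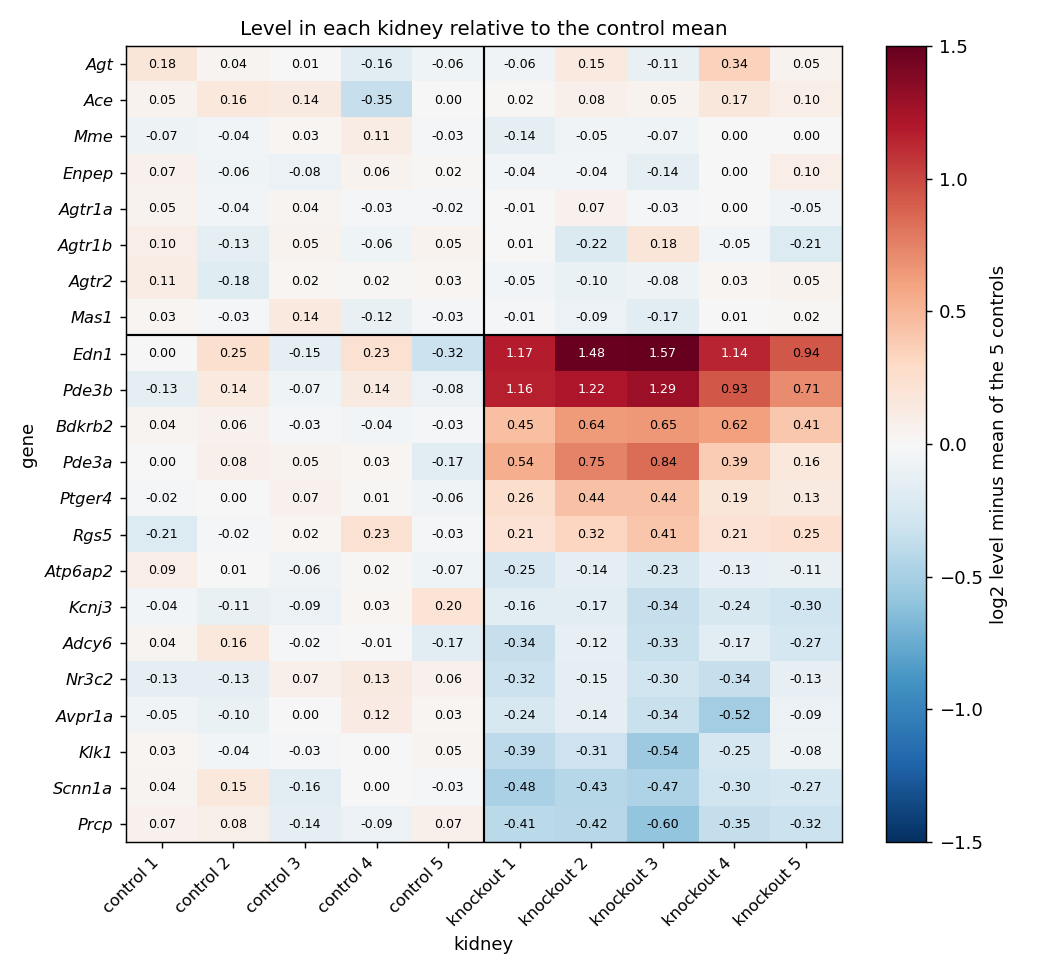
Log2 level of each gene in each kidney minus the mean of the 5 controls, printed in the cells and coloured from blue (lower) to red (higher), with the 8 members above the horizontal line and the 14 pathway genes that passed below it. The member rows show no step between controls (left) and knockouts (right), whereas the Edn1 row goes from at most 0.25 in controls to at least 0.94 in knockouts.

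Marker genes of other cell populations that could hold these transcripts also differed between the genotypes. All 8 measured fibroblast and matrix markers rose, with kidney means of 7.35 to 7.69 in controls and 8.54 to 9.47 in knockouts, and with the smallest p-values for Dpt (difference 2.41) and Dcn (1.33). Of 11 macrophage and leukocyte markers 10 rose, with kidney means of 6.30 to 6.53 and 6.97 to 7.62 and the smallest p-values for Lyz2 (difference 2.38) and Mpeg1 (1.47), and the remaining one, the neutrophil gene S100a8, was dim. The part of these cells in the rises of Pde3b, Pde3a, Ptger4, Edn1 and Bdkrb2 was not tested.

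Podocytes carry neprilysin and endothelium carries ACE as well. By limma, 0 of 6 podocyte markers passed (0 at an unadjusted p under 0.05) and 0 of 9 endothelial markers (1 unadjusted, Kdr). Kdr, lower in knockouts, passed after quantile normalisation (limma adjusted p = 0.0385) and without knockout 2 (0.0405). The podocyte genes with the smallest p-values were Ptpro (-0.13, adjusted p = 0.312) and Nphs1 (-0.10, adjusted p = 0.346), and the endothelial ones were Kdr (-0.18, adjusted p = 0.0768) and Cdh5 (0.18, adjusted p = 0.236). Of 7 adrenal markers, 0 passed by limma (0 unadjusted), with the smallest p-values for Star (difference -0.10) and Cyp11b1 (-0.13). On that list 2 genes were dim, and only 56.9% (Star) and 55.2% (Cyp11b1) of the negative controls lay below the control means. Of 5 hepatocyte markers 1 rose, Fgb (log2 difference 1.10, adjusted p = 0.00159), while the albumin gene Alb differed by -0.15 (adjusted p = 0.473).

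**Figure D4:**
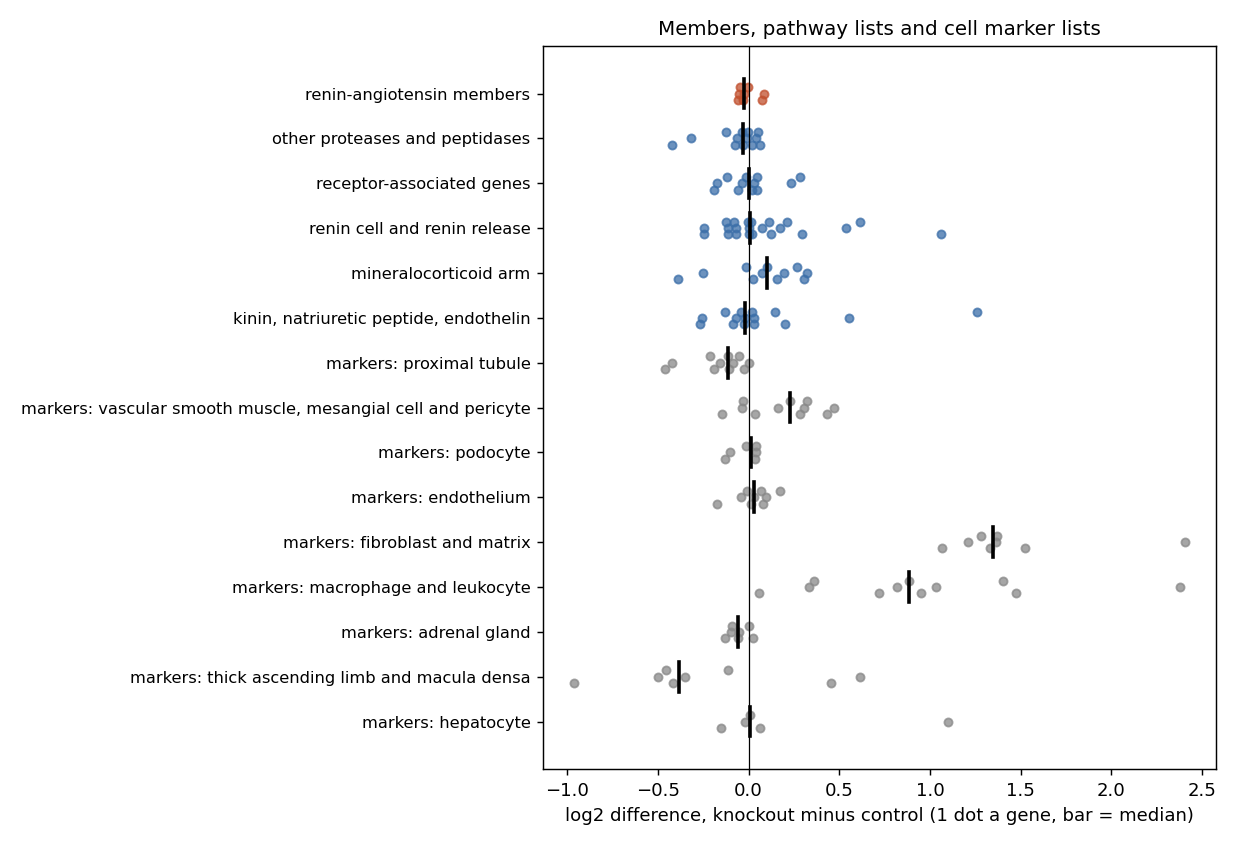
Log2 difference between knockout and control for every measured gene (dot) of the members (red), the 5 pathway lists (blue) and the 9 cell marker lists (grey), with each list's median as a black bar. The members sit in a narrow band around a median of -0.026, while the fibroblast and matrix list has a median of 1.35 and the thick ascending limb list one of -0.38.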

How the data were processed

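The deposited table holds 1 log2 value per transcript cluster and array. The submitters' processing notes name RMA and mm10, and the log2 scale was read from the range of the values. RMA puts arrays on a common scale, combines the probes of a transcript and can compress changes of dim genes. Of 72688 rows, 30604 carried 1 gene symbol, 2146 several and 39938 none, and only the first were used. Symbols were updated through Entrez identifiers (827 rows) or a unique synonym (277 rows), and rows of a gene were averaged, giving 30084 genes.

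The fit over all 10 kidneys used R 4.3.3 and limma 3.58.1: lmFit and eBayes (trend on), two-sided, with Benjamini-Hochberg adjustment over all genes and a threshold of 0.05. The fit was tested on simulated data. Each member also got an exact permutation test over the 252 relabellings, two-sided and unadjusted. Arrays carry no read depth, so their number limits the precision. Python 3.11.15 with pandas 2.3.3 and matplotlib 3.10.9 made tables and plots.

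The members and lists were chosen with earlier results of these data known. Named genes were all members, up to 4 genes past the threshold with the largest differences from each pathway list (otherwise the 2 with the smallest p), Atp6ap2, Stk11, and the 2 smallest p-values of each marker list. Genes most alike in pattern were to be named for Ren1 and for members past the threshold, which left none. Other genes are said to be named after their values were seen, as were Kcnj3, Hsd11b2, S100a8, Slc5a2, Cldn16, Scnn1b and Scnn1g. Hsd11b2, S100a8, Slc5a2, Cldn16, Scnn1b and Scnn1g were left out of the outlier test and of the single-gene alternatives. The alternatives were no trend, quantile normalisation, a filter or a floor on dim values, the brightest row per gene, all transcript clusters as features, array weights, a replicate block, and leaving out each kidney.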

Additional observations from a re-analysis of the deposited data

Results flagged for a closer look

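In 90 groups of 5 kidneys (45 named genes in each genotype), the highest or lowest kidney was set against the others by Dixon's test, which chance flags in about 5% of groups. No member was flagged. Knockout 5 stood above the other knockouts for the podocyte genes Ptpro (7.81) and Nphs1 (7.51). The low Ace value of control 4 fell short of the limit, with a gap of 0.677 of the range against a critical value of 0.710.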

How the results depend on the processing

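None of the 8 members passed the threshold under any of the 18 alternatives that gave it a value (142 values, differences from -0.12 to 0.14, smallest adjusted p = 0.150). Agtr2 and Mas1 had no value under the filter on dim genes. Signs turned for Agtr2 after quantile normalisation (0.018) and for Agtr1a with array weights (0.0061). Leaving out 1 kidney gave -0.0028 to 0.12 for Ace, -0.055 to 0.0055 for Enpep, -0.024 to 0.0065 for Agtr1a and -0.017 to 0.054 for Gja5, which crossed 0. Pathway genes that rose numbered 10 with array weights, and those that fell 4 with the replicate block and 3 with all transcript clusters fitted; leaving out 1 kidney gave 5 to 8 and 3 to 8. Among all genes lower in knockout, decreases numbered 459 with all transcript clusters fitted and 435 to 1470 leaving out 1 kidney, the highest without knockout 5; leaving out control 1 or 3 or knockout 1, 2 or 3 also moved that count by over 1.5 times. Of 665 values of the other named genes, 600 kept their direction and side of the threshold, 55 lost the call, 6 gained it and 4 turned sign. The data do not settle whether the replicate numbers pair the kidneys, which the labels do not say: same-number deviations correlated at -0.08 to 0.31, over 0.1 in 4 of 5 pairs, and 3 controls and 4 knockouts correlated best with their own number. With the replicate block, 0 members passed, 1826 genes rose and 955 fell, and the calls of Atp6ap2, Nr3c2, Kcnj3 and Avpr1a were lost. The cause of these shifts was not tested. With 5 kidneys a group, differences inside the intervals given remain compatible with the data. Signal near background limits what the intervals of Agtr2 and Mas1 say of their transcripts.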
